A study of Solanum lycopersicum with 8 samples.

Results

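Long-range chromatin loops, those spanning more than 200 kb, were examined in meristem-enriched inflorescences of tomato. A loop here is a pair of 5 kb bins on 1 chromosome whose contact was listed by FitHiC, a caller of contacts above the level that their distance gives. The distance between the midpoints of the 2 bins is the span. Of 9573 loops in the list, 948 spanned more than 200 kb, or 9.90% (exact 95% interval 9.31 to 10.5%). They are called long loops below, and the 8625 loops of 200 kb or less are called shorter loops. The members were chosen by their span, so the spans are described without a test.

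Hi-C ligates and sequences DNA ends that lie close together in cross-linked nuclei. The tissue was inflorescences of the anantha-e1546 mutant in the M82 background, collected 10 weeks after sowing from 2 plants, with 3.3 g and 3.1 g of tissue. The mutant makes cauliflower-like inflorescences in which meristems accumulate, and all loops come from this genotype, with no wild-type inflorescence to set beside it. The series also holds accessible regions of young leaves, from 6 replicates, whose genotype label reads M82 although the growth text names the anantha mutant. They were not used here because they come from another tissue and their coordinates belong to an assembly that the loop list does not name. The loops are in 1 list, taken to combine both Hi-C replicates because its name gives no replicate. It carries no contact count, score or q, so the spread between plants, the strength of a loop and the read depth are unknown. The tissue is a mixture of cells, and a contact made in few cells cannot be told apart from a weak contact made in many.

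In plant nuclei, chromatin contacts fall off with distance, and contacts above that fall-off can join genes with distant regulatory DNA or bring together stretches of like chromatin. Tomato chromosomes have gene-rich distal arms and long interiors of pericentromeric heterochromatin, which are poor in genes and rich in repeats. The loop list names no assembly, so no gene and no sequence is given for a loop.

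Most long loops were nearer to 200 kb than to the 1000 kb at which the list ends. Their median span was 375 kb, with quartiles of 275 and 590 kb. Spans above 200 and up to 300 kb accounted for 332 loops (35.0% of the long loops), and the next classes of 100 kb held 192, 105, 99, 84, 52, 47 and 37 loops. Loops over 500 kb numbered 319, or 33.6%. At the boundary, 19 loops of 205 kb fell just inside and 21 loops of 200 kb just outside. The spans thus ran on across the boundary without a gap or a step.

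**Figure D1:**
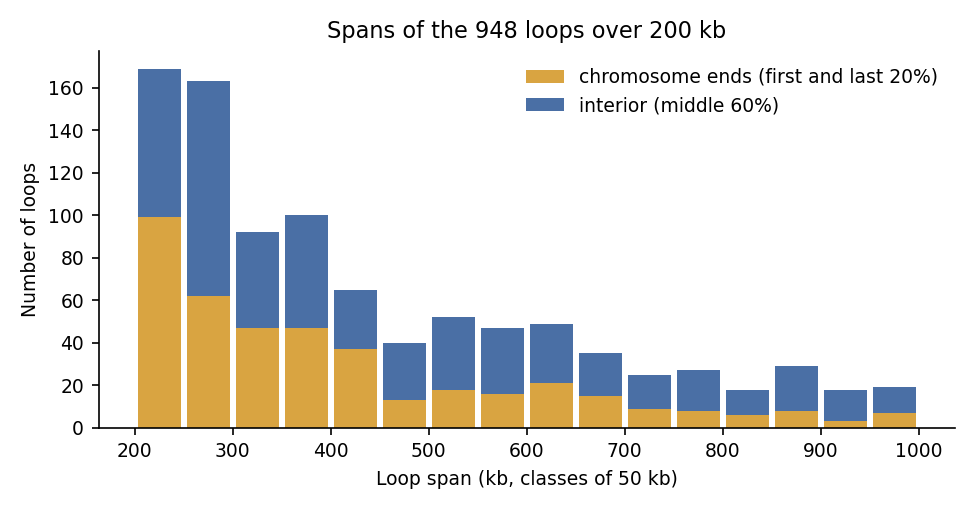
Number of loops over 200 kb (y axis) by span in classes of 50 kb (x axis), split into loops whose midpoint lies in the first or last 20% of a chromosome and loops of the middle 60%. The counts fall with span, and the interior takes a larger share of the longest loops, 73.0% at 900 to 1000 kb against 51.5% at 200 to 300 kb. The interior makes up 60% of the extent.

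The longest loops came mostly from chromosome interiors. The interior was taken as the middle 60% of the extent of a chromosome, which runs to its last anchor bin, and the ends as the first and last 20%. Interior long loops had a median span of 397.5 kb, and those of the ends 352.5 kb. The share of interior loops was 51.5% among those of 200 to 300 kb and 65.7% among those of 500 to 600 kb. It was 57.1% among those of 600 to 700 kb and 73.0% among the 37 loops of 900 to 1000 kb. Beside the 60% of the extent that the interior makes up, the classes up to 500 kb and that of 600 to 700 kb were lower. The 3 loops of 1000 kb joined the bins 29760001 to 29765000 and 30760001 to 30765000 on chromosome 5, the bins 26645001 to 26650000 and 27645001 to 27650000 on chromosome 9, and the bins 16385001 to 16390000 and 17385001 to 17390000 on chromosome 11, in the coordinates of the unnamed assembly. Among the 10 longest loops, those of 1000 and 990 kb on chromosome 9 ran close together at both anchors and may be repeated calls of 1 contact. Counted separately, 8 of the 10 lay in the interior and 6 enclosed no shorter loop. The 2 exceptions in place were a loop of 995 kb at the very start of chromosome 2, between the bins 240001 to 245000 and 1235001 to 1240000, and a loop of 980 kb on chromosome 11, between 52410001 to 52415000 and 53390001 to 53395000. The first of these enclosed no shorter loop and the second enclosed 11, the highest number among these 10.

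The number of long loops per chromosome varied less than that of shorter loops. The chromosomes carried 79.0 ± 15.5 long loops (SD, n = 12 chromosomes), from 48 on chromosome 6 to 103 on chromosome 9, a 2.15-fold range. Shorter loops ranged from 421 on chromosome 12 to 1165 on chromosome 1, a 2.77-fold range. Per Mb of extent, long loops were densest on chromosome 2, at 1.63, followed by chromosome 8 at 1.51, and chromosomes 9 and 11 were close to chromosome 8. They were sparsest on chromosome 1, at 0.820 per Mb. That chromosome, the longest, carried most shorter loops by count, at 12.6 per Mb. Per Mb, shorter loops too were densest on chromosome 2, at 19.2. As a share of all loops of a chromosome, long loops made up 6.07% on chromosome 6 and 6.12% on chromosome 1, against 14.7% on chromosome 11 and 15.8% on chromosome 10. The median span of long loops was longest on chromosome 10, at 520 kb, and shortest on chromosome 12, at 282.5 kb. These are totals of 1 list, so no error between plants can be attached to the order.

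Long loops lay in the interior far more often than shorter loops. In all, 532 long loops (56.1%; exact 95% interval 52.9 to 59.3%) had their midpoint in the interior, against 1357 shorter loops (15.7%; 15.0 to 16.5%). The interior makes up 60% of the extent by definition. Long loops were thus slightly below that share and shorter loops far below it, so long loops were not concentrated in the interior. The interior share was 56.0 ± 11.2% for long loops and 13.3 ± 12.5% for shorter loops (SD, n = 12 chromosomes). The mean difference was 42.7 percentage points (95% interval 32.8 to 52.6), with long loops higher on 12 of 12 chromosomes (p = 0.000488 by an exact two-sided permutation test that flips the signs of the differences, adjusted 0.00146 over 6 tests; 0.000488 is the smallest p it can give). Against loops of 45 to 200 kb, the class nearest in span, the difference was 30.4 points (exact permutation p = 0.000977). It was widest on chromosome 1, where 76.3% of long loops and 14.2% of shorter loops were interior, and narrowest on chromosome 2, with 55.6% and 46.6%. Chromosomes are parts of 1 list, so a p-value here tells how evenly a difference holds over chromosomes and not its spread between plants.

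Along the 10 equal parts of the extents, long loops were nearly flat in the middle, highest in part 2 and lowest in part 10. From part 3 to part 6 they numbered 81, 74, 84 and 81, and in parts 3, 4 and 5 they outnumbered the shorter loops, which had 67, 55 and 64 there. Part 2 held most long loops, with 143 (15.1% of them), followed by part 9 with 125 and part 1 with 121. Part 10 held only 27 long loops, or 2.85% (exact 95% interval 1.89 to 4.12%), whereas it held 3175 shorter loops, or 36.8%. On 5 of 12 chromosomes part 10 held no long loop.

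**Figure D2:**
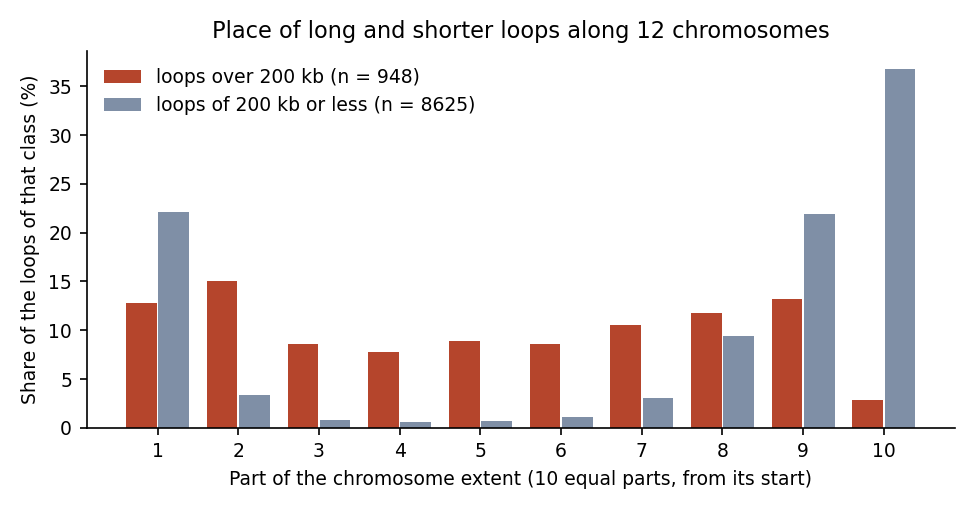
Share of the loops of each class (y axis, %) in each of 10 equal parts of the chromosome extents, numbered from the start (x axis), for loops over 200 kb and for shorter loops, summed over 12 chromosomes. Shorter loops pile up in parts 1, 9 and 10, whereas long loops have their highest share in part 2 (15.1%) and their lowest in part 10 (2.85%).

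Among loops of the ends, long loops lay more often on the start side and shorter loops on the far side. The first 20% held 264 of the 416 long loops of the ends (63.5%; exact 95% interval 58.6 to 68.1%) but 2204 of the 7268 shorter loops there (30.3%; 29.3 to 31.4%). Both sides are equal in extent by definition, so long loops lay above an equal split and shorter loops further below it. The mean difference over chromosomes was 33.2 percentage points (95% interval 10.2 to 56.2; exact sign-flip permutation p = 0.00977; adjusted 0.0146), and long loops were higher on 10 of 12 chromosomes. Chromosomes 5 and 11 went the other way, with start-side shares of 39.4% against 60.9% and of 39.3% against 55.5%. On chromosomes 10 and 12 the difference was only 7.33 and 7.86 points. The difference was widest on chromosome 2, at 97.5% against 3.19%, and was 27.7 points without that chromosome (exact permutation p = 0.0195). Part 1 of 10 equal parts of chromosome 2 alone held 38 long loops, 31.4% of the long loops in part 1 of all chromosomes, beside 13 shorter loops. In tomato the short arm of this chromosome carries the ribosomal DNA array. The start of a chromosome is a convention of the assembly, which the list does not name. Whether the start side is the same arm on every chromosome was therefore not checked.

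Long loops were most frequent where shorter loops were present but sparse. The extents were cut into 796 full windows of 1 Mb, which held 947 of the long loops by midpoint. Windows with 6 to 10 shorter loops held a mean of 3.74 long loops, those with 3 to 5 held 2.23 and those with 11 to 20 held 2.06. The class of 6 to 10 had 47 windows, and a few with many long loops, such as 16 and 14, raised its mean. Some of these few hold groups of near-parallel loops, described below, so the height of this class should be read with care. Windows with no shorter loop held 0.763 and windows with 21 to 50 held 0.345. Windows with 1 to 20 shorter loops made up 36.8% of all windows and held 67.8% of the long loops. Windows with over 20 shorter loops made up 22.9% and held 81.7% of the shorter loops but 6.34% of the long loops. The 321 windows with no shorter loop held 245 long loops (25.9%), in 121 of the windows, and the other 200 held no loop at all. These counts are a description, with no test, and how much of each window reads can be placed in was not measured.

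**Figure D3:**
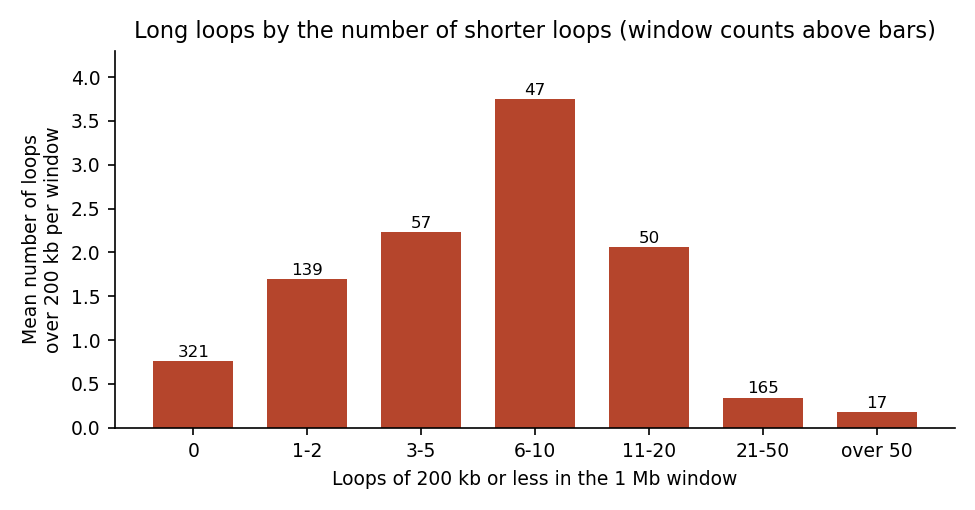
Mean number of loops over 200 kb per 1 Mb window (y axis) by the number of shorter loops in the same window (x axis), with the number of windows above each bar. The mean is highest, at 3.74, in windows with 6 to 10 shorter loops and falls to 0.345 in windows with 21 to 50. A few windows with many long loops raise the highest bar.

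The 11 windows with at least 11 long loops lay on 7 chromosomes. The first was at 8 to 9 Mb of chromosome 9, with 16 long and 6 shorter loops, and the second at 8 to 9 Mb of chromosome 8, with 15 long and 2 shorter loops. The window at 53 to 54 Mb of chromosome 3 followed, with 14 long and 10 shorter loops. The window at 57 to 58 Mb of chromosome 8 was unlike the other 10, with 12 long loops beside 34 shorter ones.

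Anchors of long loops stood in sparser surroundings than those of shorter loops. For each loop the anchors of other loops within 50 kb were counted and averaged over its 2 anchor bins. Other loops of any span counted, most of them shorter loops, and the count was not split by their class. The median was 2.5 for long loops (quartiles 1 and 4.63) and 7 for shorter loops (quartiles 4.5 and 10). The means per chromosome were 3.28 ± 1.32 and 7.22 ± 1.05 anchors (SD, n = 12 chromosomes). Long loops were lower on 12 of 12 chromosomes, by a mean of 3.94 anchors (95% interval of long minus shorter −4.92 to −2.96; p = 0.000488 by the same exact permutation test, adjusted 0.00146). Long loops also lay more often in the interior, where anchors are sparser, and the order was the same within each part. In the interior the medians were 1.5 for long and 4.5 for shorter loops, and at the ends 3.5 and 7.5. No other anchor lay within 50 kb of either anchor for 140 long loops (14.8%; exact 95% interval 12.6 to 17.2%), against 175 shorter loops (2.03%; 1.74 to 2.35%). Chromosome 8 came closest to no difference, with 6.69 against 7.33 anchors.

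Fewer long loops than shorter loops shared an anchor bin with another loop. The other loop could be of any span, and 8625 of the 9573 loops are shorter loops. The comparison was not split by the class of the other loop. A shared anchor was found for 402 long loops (42.4%; exact 95% interval 39.2 to 45.6%) and for 4819 shorter loops (55.9%; 54.8 to 56.9%). The mean difference over chromosomes was −12.7 percentage points (95% interval −18.2 to −7.29; exact sign-flip permutation p = 0.00146; adjusted 0.00293), with long loops lower on 11 of 12 chromosomes. Against loops of 45 to 200 kb the difference was −20.1 points (exact permutation p = 0.000488), and with loops within 2 bins at both ends merged it was −5.71 points (exact permutation p = 0.0366). On chromosome 12 the order was opposite, at 48.4% for long and 45.6% for shorter loops. Within the interior the difference was −9.18 points (exact permutation p = 0.112; adjusted 0.112), and within the ends it was −5.46 points (exact permutation p = 0.0498; adjusted 0.0598). Neither passed the threshold after adjustment. Against loops of 45 to 200 kb the difference at the ends was −16.6 points (exact permutation p = 0.000488) and that in the interior −9.57 points (exact permutation p = 0.0913), whereas with close loops merged the difference at the ends was 1.99 points (exact permutation p = 0.331). The sparser surroundings of long-loop anchors moved with the lower sharing, and their part in it was not tested.

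**Figure D4:**
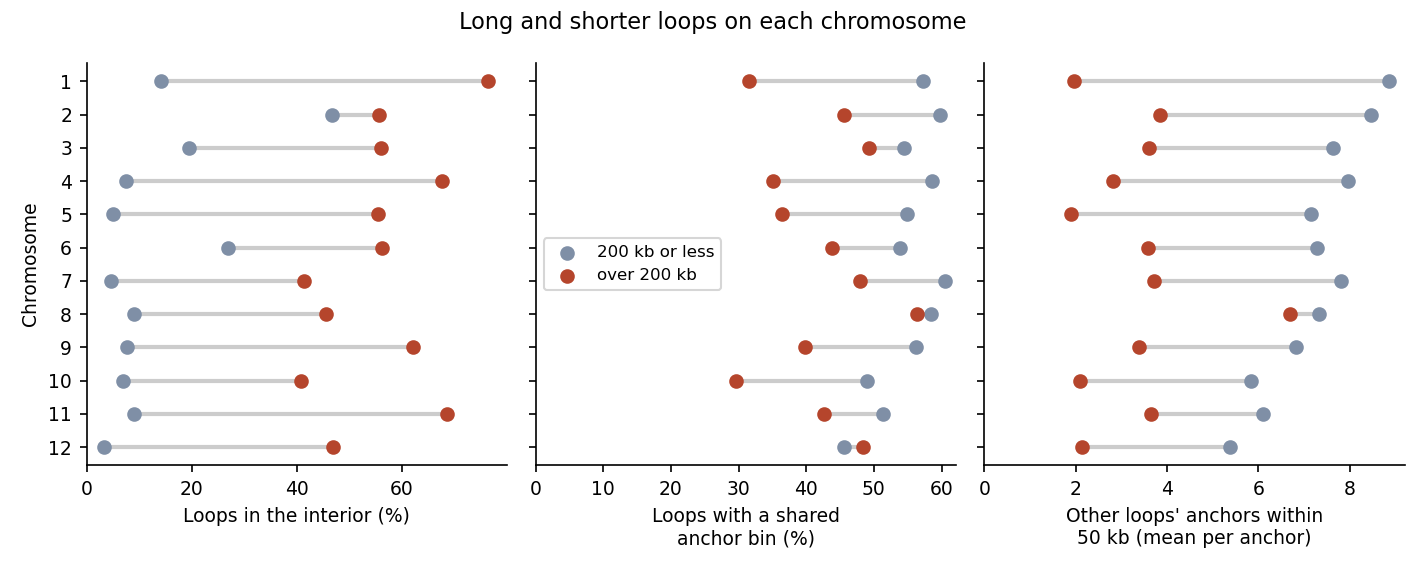
Values for loops over 200 kb and for shorter loops on each of 12 chromosomes (y axis): share of loops in the interior (left, %), share of loops with a shared anchor bin (middle, %), and mean number of other loops' anchors within 50 kb of an anchor (right). Long loops are higher in the left panel and lower in the right panel on 12 of 12 chromosomes, and lower in the middle panel on 11, with chromosome 12 as the exception.

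Long loops shared anchors both with each other and with shorter loops. The list holds 948 long and 8625 shorter loops. Relative to these numbers, sharing with long loops was the more frequent by either count below. Near-parallel long loops, described below, add to it. Counted by loop, 256 shared with a long loop and 209 with a shorter one: of the 402 sharing long loops, 193 shared with long loops only, 146 with shorter loops only and 63 with both. Both anchors were shared in 86 of them, the start anchor alone in 150 and the end anchor alone in 166. Counted by bin, the order was the reverse. The long loops used 1740 distinct bins, of which 135 (7.76%) anchored at least 2 long loops and 216 (12.4%) also anchored a shorter loop. Where a long and a shorter loop met in a bin, the shorter loop ran inside the span of the long loop in 160 of 294 cases (54.4%) and away from it in the other 134.

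Long loops that met in a bin usually ran the same way from it. Of the 135 bins with at least 2 long loops, 62 were the start of all their loops and 59 the end of all of them, whereas 14 joined loops to both sides. Bins with 4 long loops occurred 3 times. The bin from 2555001 to 2560000 on chromosome 2 was the start of loops of 620, 650, 660 and 685 kb. The bin from 4465001 to 4470000 on the same chromosome was the end of loops of 335, 350, 365 and 380 kb. The bin from 53540001 to 53545000 on chromosome 3 was the end of loops of 400, 435, 445 and 490 kb. In each case the far anchors were spread over a short stretch, of at most 90 kb. A further 15 bins anchored 3 long loops, and 1 of these, from 61250001 to 61255000 on chromosome 1, joined loops to both sides.

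Overlap among long loops was common, and crossing and nested pairs were about as frequent. Another long loop overlapped 749 of the 948 (79.0%), with 84.4% at the ends and 74.8% in the interior. Among the 1716 overlapping pairs, 794 crossed (46.3%), so that each loop began or ended inside the other, 757 were nested with 4 separate anchors (44.1%), and 165 shared 1 anchor bin (9.62%). A further 15 pairs lay end to end, with 1 loop starting in the bin where another ended. The balance differed between chromosomes, from 60 crossing and 22 nested pairs on chromosome 5 to 13 crossing and 31 nested on chromosome 12. On chromosome 5, 39 of the crossing pairs came from 1 run of 12 overlapping loops, from 29145001 to 30915000. Single runs can thus weigh heavily in these counts, and near-parallel loops, described below, count as separate pairs. Whether 2 loops overlap depends on their spans, which the rule used, so no test was made.

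Many overlapping long loops ran nearly parallel. Another long loop had both anchors within 50 kb of the same anchors for 400 loops (42.2%), which formed 128 groups, and 18 groups held 5 loops or more. At the ends 49.0% of long loops were in such groups, and in the interior 36.8%. Counting each group once leaves 676. Whether calls were merged or filtered before deposit is not stated, so near-parallel loops may be separate contacts or repeated calls of 1 contact, which cannot be told apart here. Of the 489 pairs this close, 207 were nested, 190 crossed and 92 shared an anchor bin, so the anchors moved towards each other about as often as together. With a limit of 25 kb, 273 loops were in groups, and with 100 kb, 533. The largest groups had 12 loops each, 1 on chromosome 8 between 57705001 to 57750000 and 57920001 to 58035000, and 1 on chromosome 9 between 8265001 to 8390000 and 8580001 to 8725000. The first group enclosed 10 to 15 shorter loops per long loop, and the second enclosed 0 or 1, so groups of equal size stood in very different surroundings. The next was a group of 11 loops on chromosome 11, between 35055001 to 35125000 and 35400001 to 35490000, which enclosed 0 or 1 shorter loop each.

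Joined by overlap, the long loops formed 383 stretches that covered 204 Mb (25.5%) of the 801 Mb of chromosome extents. Single loops made up 199 of the stretches. At the other extreme, 53 stretches of 5 or more loops held 413 long loops (43.6%) in 45.1 Mb. The 3 largest had 16 loops each. On chromosome 2, from 2440001 to 3385000, 62 nested and 48 crossing pairs were stacked in 0.94 Mb, with 2 shorter loops. On chromosome 8, from 7905001 to 9570000, the 16 loops formed looser sets in 1.66 Mb, with 26 nested and 27 crossing pairs and 3 shorter loops. On chromosome 9, from 8215001 to 8990000, 50 nested and 65 crossing pairs lay in 0.77 Mb, again with 3 shorter loops. All 3 stretches lay in the first 20% of their chromosomes.

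**Figure D5:**
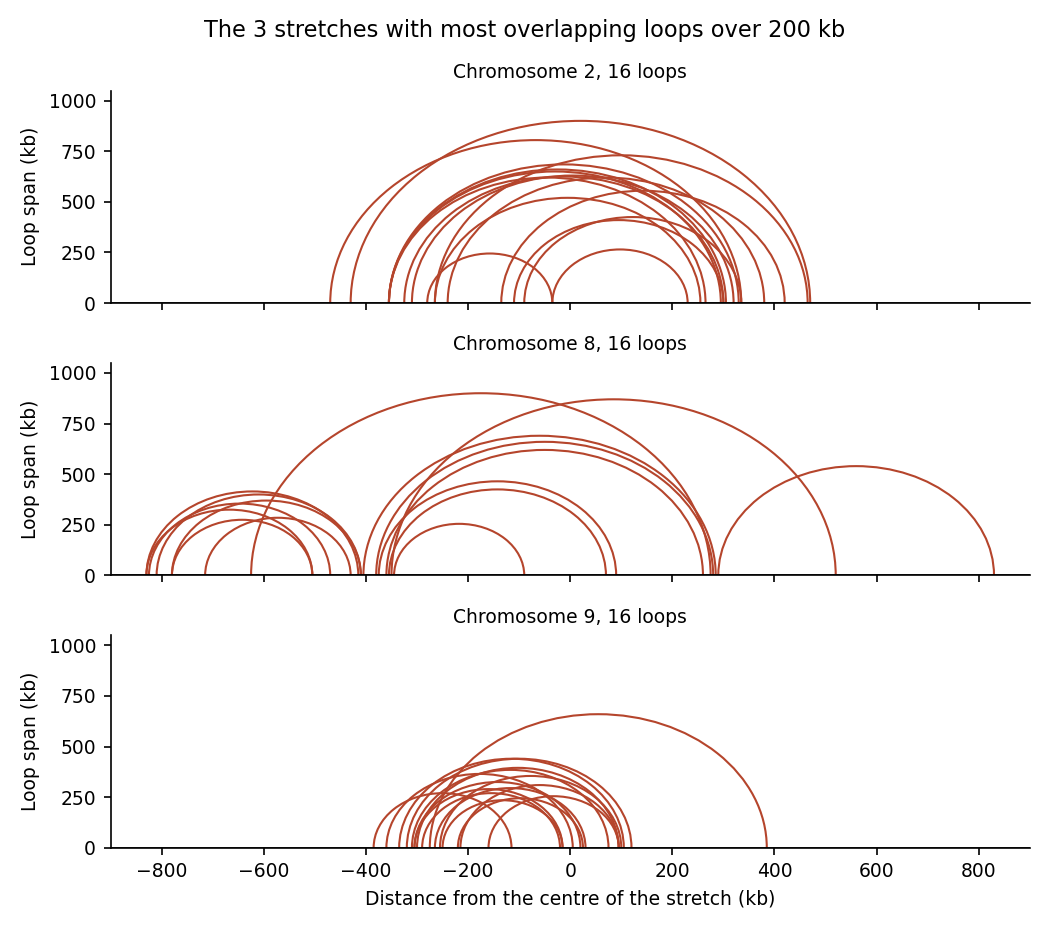
Loops over 200 kb drawn as arcs between their anchors in the 3 stretches with most overlapping long loops, on chromosomes 2, 8 and 9, with the distance from the centre of the stretch (x axis, kb) and the span as the height of the arc (y axis, kb). Each stretch has 16 loops, and many arcs run close together with slightly different feet.

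Shorter loops were sparser inside the stretches covered by long loops than outside them. At the chromosome ends, there were 7.71 shorter loops per Mb by midpoint inside and 26.9 outside, a ratio of 0.287. In the interior the densities were 1.43 and 3.36 per Mb, a ratio of 0.425. The density was lower inside on 12 of 12 chromosomes when ends and interior were pooled. This is a description without a test. Place within the ends was not matched: part 10 of 10 equal parts held 3175 shorter and 27 long loops, and part 2 held 292 and 143. Nor was place within the interior, where part 8 held 812 shorter and 112 long loops, and part 4 held 55 and 74. Chromosomes were pooled in both ratios. The share of these differences in place in either ratio was not tested.

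A long loop usually enclosed no shorter loop at all. None lay within the span of 585 long loops (61.7%; exact 95% interval 58.5 to 64.8%), while 127 enclosed 1, 150 enclosed 2 to 4, 47 enclosed 5 to 9 and 39 enclosed 10 or more. In the interior 74.2% enclosed none (70.3 to 77.9%) and the highest number was 7. At the ends 45.7% enclosed none (40.8 to 50.6%), and all 39 loops with 10 or more were there. The share enclosing none showed no steady course with span. It was 62.7% for loops of 200 to 300 kb and 67.6% for those of 900 to 1000 kb, and in the classes between it ran from 55.3% at 800 to 900 kb to 69.7% at 500 to 600 kb. The interior share was also higher in the longest classes. Shorter loops that ran across an anchor of a long loop were fewer, at 422 pairs against 1358 pairs of a long loop and a shorter loop within it. At least 1 was found for 223 long loops (23.5%). A span offers a shorter loop more room than its 2 anchors do, so the order of these counts depends on the spans and says nothing of anchors being avoided. Neither an enclosed nor a crossing shorter loop was listed for 511 long loops (53.9%).

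Seen from the shorter loops, 651 of 8625 (7.55%) lay within a long loop. The share was 4.24% for loops of 10 kb, 4.34% for those of 15 to 40 kb and 17.5% for those of 45 to 200 kb. The enclosed loops had a median span of 60 kb, against 15 kb for those not enclosed.

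The long loops that enclosed most shorter loops lay at the chromosome ends. The first joined the bins 86120001 to 86125000 and 87075001 to 87080000 on chromosome 1, spanned 955 kb and enclosed 31, or 32.5 per Mb of span. The second, of 390 kb between 76375001 to 76380000 and 76765001 to 76770000 on the same chromosome, enclosed 28, or 71.8 per Mb. A loop of 435 kb between 67935001 to 67940000 and 68370001 to 68375000, at the far end of chromosome 9, enclosed 19. With ties, 15 loops enclosed 14 or more, none of them in the interior, and 9 of the 15 lay on chromosome 8. Several of those on chromosome 8 are near-parallel loops that enclose the same shorter loops, so they are not separate cases.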

How the data were processed

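Hi-C was measured in 2 inflorescence samples. Per the submitters' processing notes the tools include HiC-Pro 3.1.0, and the name of the deposited list gives FitHiC at 5000 bp. The assembly, the significance threshold and the distance limits are not stated in the labels or the list. The values, deposited by the authors as 1 list, are positions in bp of the midpoints of both anchor bins. They come with no counts, scores or q values, so depth and its precision are unknown. That the list combines both replicates was inferred from its name. Bins are printed 1-based. The members, lists and tests were chosen with earlier results of these data known. Loops named are the 10 longest, those enclosing most shorter loops, bins with at least 3 long loops, and the 3 largest stretches. Groups of near-parallel loops and the windows were chosen after the values were seen.

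A loop was placed by its midpoint. Differences between long and shorter loops were taken within each of 12 chromosomes, and the signs of these differences were flipped in all 4096 patterns for an exact two-sided permutation test of their mean, with Benjamini-Hochberg adjustment over 6 tests. Chromosomes are not biological replicates. Intervals of shares are exact (Clopper-Pearson), treat loops as independent and cover counting error only. The calculation was tested on simulated data in which the values of loops were drawn independently, so clustering of loops was not part of that check. Python 3.11.15, numpy 2.4.6, pandas 2.3.3 and scipy 1.17.1 were used. The alternatives were other span thresholds, comparison classes, widths of the ends, windows, merging of close loops and leaving out chromosome 2.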

Additional observations from a re-analysis of the deposited data

How the results depend on the processing

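The interior share, the start-side share and the density at the anchors kept their direction and their side of the 0.05 threshold, by unadjusted p, under every alternative run, with differences of 30.4 to 47.0 points, 26.7 to 43.5 points and −9.03 to −1.57 anchors. Anchor sharing kept both under 7 alternatives (−20.1 to −5.71 points). At the ends alone it passed with ends of 25% (−9.02), with loops over 300 kb (−9.21), against loops of 45 to 200 kb (−16.6), without the 10 kb loops (−13.7) and with anchors within 1 bin counted as shared (−7.84). There it lost the threshold with loops over 150 kb (−0.869), with ends of 10% (−9.70) and without chromosome 2 (−5.37), and turned to 1.99 with close loops merged. In the interior alone it passed with loops over 300 kb (−10.01), with ends of 10% (−10.8) and with anchors within 1 bin counted as shared (−10.9). The cause of these changes was not tested. The number of long loops was 616 over 300 kb and 319 over 500 kb, by construction. The share of crossing pairs was 42.5% over 150 kb and 50.4% over 300 kb, and the share of long loops enclosing none was 48.9% over 300 kb, where loops of 205 to 300 kb count as enclosed. Alternatives for pairs, enclosed loops and chromosome parts were chosen after seeing the data. No paired analysis was possible because the list carries no replicate values, and no replicate could be left out for the same reason. Depth is unknown, so an absent loop says nothing about a limit of detection.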
